A study of Mus musculus with 120 samples.

Results

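Complex III (ubiquinol-cytochrome c reductase), cytochrome c and complex IV (cytochrome c oxidase) were described as one module of nuclear genes in soleus muscle and heart of mice with mitochondrial mutations. Members were all rows whose symbol begins with Cox or Uqc, together with Cyc1, Cycs, Bcs1l, Sco1, Sco2 and Surf1, with pseudogenes left out. The rule gave 44 genes of 53656 in the tables of both tissues. They comprised 9 complex III subunits, 4 complex III assembly factors, cytochrome c (Cycs), 17 complex IV subunits and isoforms, 12 complex IV assembly factors and the supercomplex factor Cox7a2l. Low counts kept Cox6b2, Cox7b2 and Cox8c out of the soleus tests and Cox7b2 and Cox8c out of the heart tests, so that 41 members were tested in soleus and 42 in heart.

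The study compared strains with distinct mitochondrial mutations, with and without endurance training, and 96 libraries of poly(A) RNA are used here. ANT1 mice lack Slc25a4 (Slc25a4-/-), which encodes the heart and muscle ADP/ATP carrier. CO1 mice carry m.6589T>C in the gene for a core subunit of complex IV, and ND5 (m.12352C>T) and ND6 (m.13997G>A) mice carry a change in a gene for a complex I subunit, all in mitochondrial DNA (mtDNA). All were on the C57BL/6Eij background with intact Nnt (Nnt+/+). Each strain had 6 exercised and 6 non-exercised mice per tissue. Exercised mice ran from 16 weeks of age for 45 min every 2nd day at 50% of maximal capacity over 8 weeks, and tissue was taken 6 days after the last session. Non-exercised mice were handled. The mean of the mtDNA strains (CO1, ND5 and ND6) served as the comparison for ANT1, and the control strain was not analysed here, so a difference between ANT1 and mtDNA strains may lie on either side.

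Complex III passes electrons from ubiquinol to cytochrome c, a soluble carrier in the intermembrane space, and complex IV passes them to oxygen. The catalytic cores, cytochrome b and the large oxidase subunits, are encoded in mtDNA, and the remaining subunits, the copper and haem factors and the chaperones are nuclear. In mammalian heart and skeletal muscle some small complex IV subunits exist as a muscle isoform (Cox6a2, Cox7a1, Cox8b) and a ubiquitous isoform (Cox6a1, Cox7a2, Cox8a). Muscle is among the tissues with the highest content of both complexes.

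The promoters of the isoform genes are shown because the balance of muscle and ubiquitous isoforms is what the comparison of the tissues below rests on. Windows run from 250 bases before to 50 bases after the annotated start (RefSeq, build GRCm38.p6), each on its gene's strand. An entry was held for 33 of the 44 members, and for Cox6a2 none was. Capitals mark matches to a nuclear respiratory factor 1 core (GCGCANGCG) or a muscle E box (CAGCTG), searched on both strands.
Cox6a1, chr5:115348909-115349208, minus strand: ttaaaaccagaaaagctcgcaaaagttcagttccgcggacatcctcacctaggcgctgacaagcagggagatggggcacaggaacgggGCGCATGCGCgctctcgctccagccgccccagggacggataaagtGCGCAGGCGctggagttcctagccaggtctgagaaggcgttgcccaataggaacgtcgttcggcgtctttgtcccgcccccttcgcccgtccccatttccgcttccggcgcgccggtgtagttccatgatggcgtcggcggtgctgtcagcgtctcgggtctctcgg
Cox7a1, chr7:30183921-30184220, plus strand: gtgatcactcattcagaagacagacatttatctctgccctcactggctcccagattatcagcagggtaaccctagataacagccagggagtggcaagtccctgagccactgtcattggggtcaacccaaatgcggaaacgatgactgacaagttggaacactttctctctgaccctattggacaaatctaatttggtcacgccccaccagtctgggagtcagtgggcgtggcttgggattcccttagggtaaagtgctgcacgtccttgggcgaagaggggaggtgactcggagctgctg
Cox7a2, chr9:79759804-79760103, minus strand: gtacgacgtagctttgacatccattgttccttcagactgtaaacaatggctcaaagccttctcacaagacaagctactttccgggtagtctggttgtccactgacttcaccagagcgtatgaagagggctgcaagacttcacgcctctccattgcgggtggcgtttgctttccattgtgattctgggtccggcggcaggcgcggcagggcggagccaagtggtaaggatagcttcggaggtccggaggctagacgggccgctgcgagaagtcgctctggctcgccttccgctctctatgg
Cox8b, chr7:140900397-140900696, minus strand: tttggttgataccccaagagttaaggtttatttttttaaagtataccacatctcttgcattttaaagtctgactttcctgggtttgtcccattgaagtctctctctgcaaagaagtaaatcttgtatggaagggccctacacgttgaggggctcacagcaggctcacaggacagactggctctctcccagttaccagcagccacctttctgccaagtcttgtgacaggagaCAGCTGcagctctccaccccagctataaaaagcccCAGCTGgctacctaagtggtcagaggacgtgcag
Cox8a, chr19:7217567-7217866, minus strand: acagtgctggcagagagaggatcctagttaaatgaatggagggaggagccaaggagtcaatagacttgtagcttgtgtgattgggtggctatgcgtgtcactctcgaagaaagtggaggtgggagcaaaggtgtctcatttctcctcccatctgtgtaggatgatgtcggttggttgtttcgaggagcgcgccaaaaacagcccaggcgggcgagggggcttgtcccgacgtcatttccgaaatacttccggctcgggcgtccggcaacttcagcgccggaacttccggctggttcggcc
The window of Cox6a1 held 3 matches to the respiratory factor core, at -162 to -154, at -161 to -153, which overlaps the first, and at -117 to -109. The window of Cox8b held E boxes at -19 to -14 and at 17 to 22. The windows of Cox7a1, Cox7a2 and Cox8a held neither motif. Among the 33 members with a window, 5 (15.2%) held the respiratory factor core (Cox6a1, Cycs, Uqcc2, Uqcr11 and Uqcrc1), against 7.03% of 27025 genes with a window. The E box was in 3 members (9.09%, Cox8b, Sco2 and Uqcc3), against 18.3% of all genes with a window. The estrogen-related receptor element AAGGTCA was in 1 member, Uqcc3 (3.03%, against 5.38%), and the YY1 sequence AAGATGGCG in 1, Cox10 (3.03%, against 1.64%).

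Library totals ran from 10.2 M to 20.7 M counts (megacounts) in soleus and from 19.7 M to 26.5 M in heart. Slc25a4, the deleted gene, stood at 1.89 to 22.1 CPM (counts relative to a library's size after TMM scaling) in all 24 ANT1 libraries, against 471 to 4021 CPM in all 72 libraries of the mtDNA strains. The non-exercised ND5 heart of mouse B80 stood apart: its summed cardiac ventricle markers came to 4640 CPM and its white adipocyte markers to 3034 CPM, and the same code is labelled exercised in soleus. Atrial markers summed to between 27.2 and 36460 CPM among non-exercised hearts. In whole tissue, fewer cells of a type and less RNA per cell cannot be told apart.

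Per transcript length, small complex IV subunits led the module in both tissues. In soleus the highest FPKM were those of Cox8b (2213 ± 225, SD, n = 48), Cox6a2 (2158 ± 199), Cox6c (1952 ± 166) and Cox7a1 (1903 ± 287) (SD over 48 libraries each). Cox8b and Cox6a2 differed by less than 1 SD, as did Cox6c and Cox7a1. This order over pooled strains did not hold within each: in non-exercised ANT1 soleus Cox7a1 (2267 ± 154, SD, n = 6) lay above Cox6a2 (2106 ± 150), while in the mtDNA strains Cox7a1 averaged 1600 to 1837 FPKM, against 1959 to 2306 FPKM for Cox6a2. In heart Cox7a1 led (2553 ± 613), followed by Cox6c (1861 ± 235), Cox4i1 (1708 ± 295) and Cox6a2 (1681 ± 292). Complex III subunits lay lower, from 379.8 FPKM (Cyc1) to 1268 FPKM (Uqcrq) in soleus and from 389 FPKM (Cyc1) to 1004 FPKM (Uqcrq) in heart. Cycs itself, the mobile carrier, averaged 244.5 FPKM in soleus and 202 FPKM in heart. Among assembly factors the copper chaperone Cox17 was highest (262 FPKM in soleus, 347 FPKM in heart) and the copper factor Sco1 was among the lowest (3.93 FPKM in soleus, 6.22 FPKM in heart). The lung isoform Cox4i2 averaged 2.58 FPKM in soleus and 6.87 FPKM in heart. Testis isoforms were at or near 0: Cox8c was listed at 0 in all 96 libraries, and Cox7b2 in 47 of 48 soleus and 21 of 48 heart libraries.

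**Figure D1:**
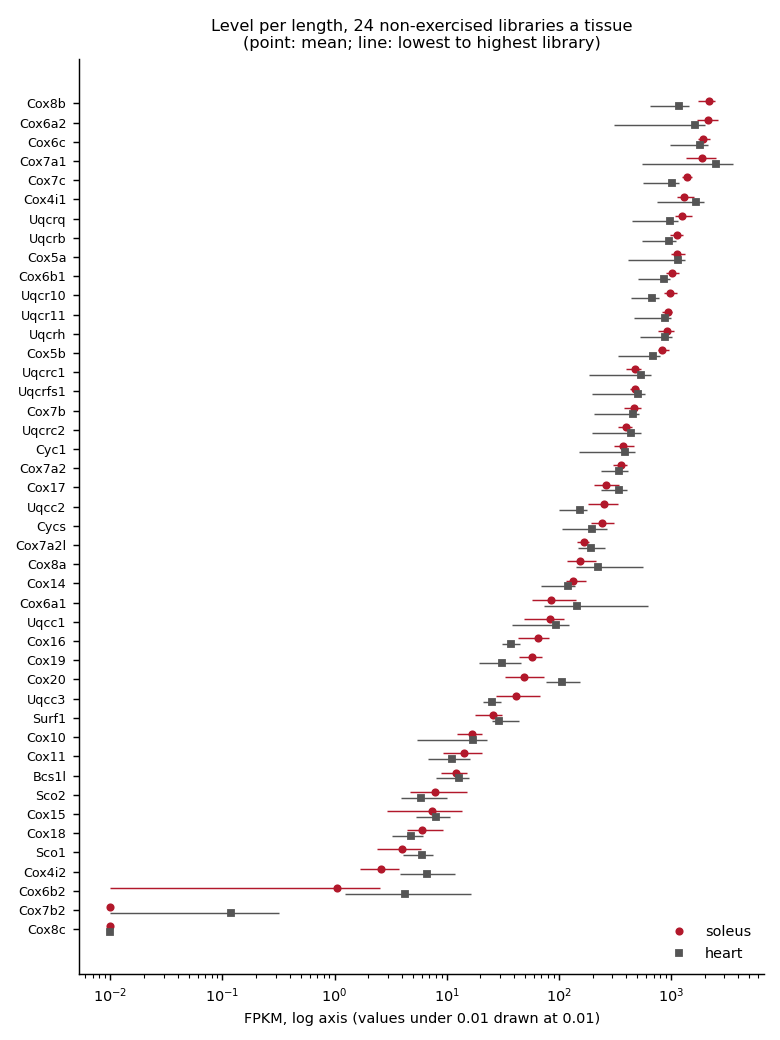
Mean FPKM of the members in soleus and heart (log axis; point: mean of 24 non-exercised libraries per tissue, line: lowest to highest library, levels at or near 0 at the left edge). Small complex IV subunits lie highest and assembly factors mostly lower; over all 48 libraries Cox8b averaged 2213 FPKM in soleus and Sco1 3.93 FPKM.

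In non-exercised soleus, nearly the whole module stood higher in ANT1 mice than in the mtDNA strains once libraries were scaled by TMM. Of 41 members tested, 37 were higher and 0 lower at an adjusted p under 0.05 (edgeR's quasi-likelihood test, Benjamini-Hochberg), where 47.7% of all genes were called, 22.4% as higher and 25.4% as lower. The members' median log2 fold change was 0.70, against -0.04 over all genes tested. The 4 not called were the haem A synthase Cox15 (0.00 ± 0.08, SE), the copper factor Sco1 (0.21 ± 0.10), the assembly factor Uqcc3 (0.11 ± 0.08) and Cox4i2 (0.39 ± 0.21, adjusted p = 0.112). The libraries of the groups did not overlap for 28 of the 44 members, all 28 higher in ANT1, where 9.96% of all genes tested did not overlap, 6.62% as higher and 3.34% as lower.

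The size of these changes depended on what libraries were scaled to. In non-exercised soleus, mtDNA transcripts made up 39.0% ± 4.35 of all counts in ANT1, against 18.5% ± 1.71 in CO1, 15.7% ± 2.17 in ND5 and 20.7% ± 1.32 in ND6 (SD, n = 6 each). TMM factors averaged 0.721 in ANT1, against 1.12 in CO1, 1.22 in ND5 and 1.07 in ND6. As a share of all counts, members together took 1.002% ± 0.042 in ANT1, against 0.934% ± 0.038 in CO1, 0.921% ± 0.026 in ND5 and 0.938% ± 0.032 in ND6. On total counts with no scaling factors, 13 members were called higher and 8 lower, where 2.73% of all genes were called higher and 83.1% lower. The members' median was 0.06 in that fit, and the median of all genes shifted to -0.69. Of the 37 members called higher, 13 had a log2 fold change below 0 on total counts. Among these, Cox16, Cox19, Cox20, Surf1 and Uqcc2 were called lower there. With mtDNA transcripts left out of the totals, 33 members were higher and 1 (Cox15, -0.23) lower (59.9% of all genes called). Fold changes below are on the TMM scale, relative to the median gene.

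**Figure D2:**
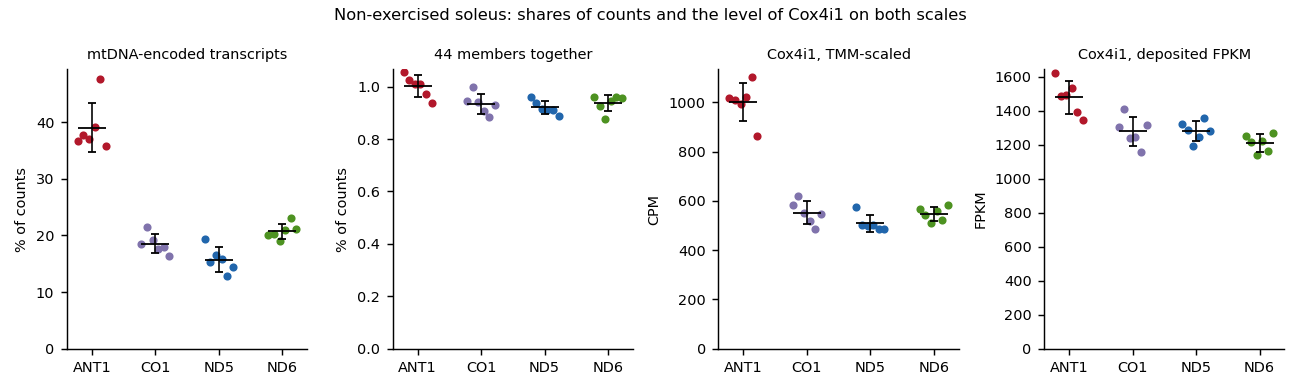
Non-exercised soleus by strain: share of counts from mtDNA transcripts, share taken by the 44 members, and Cox4i1 on the TMM-scaled and the deposited FPKM scale (points: 6 libraries per strain; bars: mean and SD). The mtDNA share separates ANT1 (39.0%) from the other strains, while the members' share differs little (1.002% in ANT1, against 0.921% to 0.938% in the other strains).

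Complex III subunits moved as a block: 9 of 9 were higher in ANT1 soleus, with log2 fold changes between 0.64 (Uqcr10) and 0.85 (Cyc1), a median of 0.72. Cyc1, the cytochrome c1 haem subunit, had 586, 623 and 672 CPM in ANT1 soleus (lowest, median, highest of 6), against 278, 350 and 404 CPM in the mtDNA strains (of 18), and the groups did not overlap. Uqcrc1, a core protein, had 955, 972 and 1028 CPM in ANT1, against 404, 591 and 691 CPM in the mtDNA strains. Its log2 fold change was 0.78 ± 0.08, and the groups did not overlap either. On total counts Uqcrh and Uqcr10 had signs below 0 (-0.002 and -0.016) and were not called, while Cyc1 was still called higher (0.20). Cycs had 714, 808 and 933 CPM in ANT1, against 355, 438 and 535 CPM in the mtDNA strains. These did not overlap, at a log2 difference of 0.89 ± 0.07 (0.23 on total counts, called).

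Among complex IV subunits 13 of 14 were higher, with a median of 0.79. Cox4i1, the widely expressed regulatory subunit IV, had 863, 1013 and 1102 CPM in ANT1, against 485, 533 and 620.3 CPM in the mtDNA strains. Its log2 fold change, 0.90 ± 0.06 (adjusted p = 1.1e-16), had the smallest p of all members, and it was 0.25 on total counts. Cox6b1, a subunit on the intermembrane side, had 460.4, 524 and 598 CPM in ANT1, against 262, 289 and 336 CPM in the mtDNA strains (0.84 ± 0.06, adjusted p = 2.66e-16). Cox4i2, the isoform of Cox4i1, had 1.02, 1.29 and 2.39 CPM in ANT1, against 0.732, 1.07 and 1.64 CPM in the mtDNA strains, and these groups overlapped.

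Both kinds of isoform were higher. The muscle isoform Cox7a1 had 406, 465 and 561 CPM in ANT1, against 156, 233 and 322 CPM in the mtDNA strains, and its log2 fold change of 1.06 ± 0.10 was the largest among subunits (0.41 and called on total counts). Its ubiquitous counterpart Cox7a2 had 169, 206 and 264 CPM in ANT1, against 104, 126 and 144 CPM in the mtDNA strains (0.78 ± 0.07). Cox8b had 284, 361 and 456 CPM in ANT1, against 149, 226 and 266 CPM in the mtDNA strains (0.74 ± 0.08), and Cox8a changed by 0.81 ± 0.06. Cox6a2 had 1075, 1222 and 1431 CPM in ANT1, against 558, 814 and 1024 CPM in the mtDNA strains (0.64 ± 0.08, with -0.01 on total counts), and Cox6a1 changed by 0.72 ± 0.09 with overlapping groups. For the other 5 isoform genes the groups did not overlap. In deposited FPKM, which are not TMM-scaled, Cox7a1 averaged 2267 ± 154 in ANT1, against 1837 ± 340 in CO1, 1600 ± 265 in ND5 and 1808 ± 115 in ND6 (SD, n = 6 each). Cox6a2 averaged 2106 ± 150 FPKM in ANT1, against 2169 ± 201 in CO1, 1959 ± 185 in ND5 and 2306 ± 188 in ND6, within the spread between libraries.

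**Figure D3:**
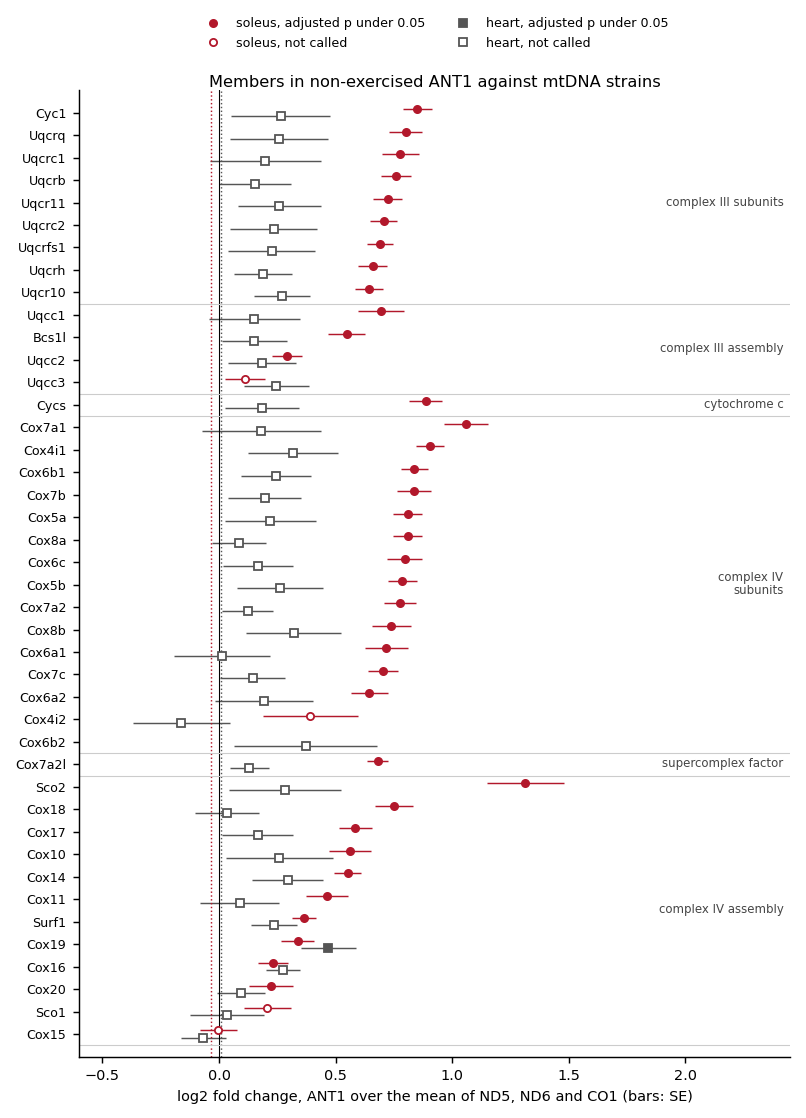
Log2 fold change (TMM scale) of each tested member in non-exercised ANT1 mice over the mean of the mtDNA strains, soleus and heart, with SE bars; filled symbols passed the test and dotted lines mark the median of all genes. In soleus 37 of 41 are filled, of which 13 had a sign below 0 on total counts; in heart 1 of 42 is filled, Cox19.

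Assembly factors moved less evenly. Of the 12 for complex IV, 10 were higher, from 0.22 (Cox20) to 1.31 (Sco2), with a median of 0.41. Sco2, which delivers copper to complex IV, had 9.02, 13.8 and 18.6 CPM in ANT1, against 3.12, 5.29 and 11.3 CPM in the mtDNA strains, so the groups overlapped at their edges (1.31 ± 0.17, the largest of the module, and 0.66 on total counts). Cox18, needed to insert the mtDNA-encoded subunit 2, had 6.90, 7.96 and 11.6 CPM in ANT1, against 4.20, 5.07 and 5.65 CPM in the mtDNA strains, with no overlap (0.75 ± 0.08). Cox15 had 21.6, 30.9 and 36.6 CPM in ANT1, against 24.9, 30.6 and 34.2 CPM in the mtDNA strains, with groups that overlapped. Of the 4 complex III factors, Bcs1l, which inserts the Rieske protein, Uqcc1 and Uqcc2 were higher (0.55, 0.70 and 0.29), and on total counts Bcs1l and Uqcc2 had signs below 0. Cox7a2l, which takes part in joining complexes III and IV, had 179, 192 and 212 CPM in ANT1, against 107, 123 and 136 CPM in the mtDNA strains (0.68 ± 0.05, adjusted p = 1.35e-16).

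Each mtDNA strain alone gave the same count, 36 members higher and 0 lower in ANT1 soleus, against CO1 (35.2% of all genes called), ND5 (49.0%, with 26.7% lower) and ND6 (30.8%). These comparisons share the ANT1 libraries. In exercised soleus 37 members were higher and 0 lower (43.5% of all genes called), with a median of 0.59, and Cox15, Cox20, Cox4i2 and Uqcc3 were not called. On total counts the exercised libraries gave 10 members higher and 7 lower (2.93% of all genes higher, 78% lower).

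The mtDNA-encoded partners were higher by more than the nuclear members. In ANT1 soleus mt-Co1 changed by 1.92 ± 0.10, mt-Co3 by 1.67 ± 0.12, mt-Co2 by 1.54 ± 0.11 and mt-Cytb by 1.53 ± 0.10, all 4 called, and no library of 1 group overlapped the other. Of 22 other nuclear partners, 20 were higher and 0 lower (median 0.46). The largest were Ndufa4, a subunit now assigned to complex IV (0.99 ± 0.07), and Cmc2, a complex IV assembly factor (0.95 ± 0.08), and Fastkd3 (0.19) and Pet117 (0.52) were not called. Other tissue markers differed between the same groups. All 7 matrix and tendon markers were lower in ANT1 soleus (summed 132 to 352 CPM, against 281 to 4301 CPM in the mtDNA strains). Of 6 macrophage markers 5 were lower (14.4 to 43.6 CPM, against 13.4 to 139.5 CPM). All 5 red blood cell markers were higher (262 to 627 CPM, against 162 to 433 CPM). Of 8 fast fibre markers 2 were higher and 4 lower (18540 to 29060 CPM, against 18680 to 30650 CPM). Of 6 slow fibre markers 5 were lower (14100 to 22770 CPM, against 18690 to 33540 CPM). Of 6 white adipocyte markers 1 was higher (186 to 446 CPM, against 157 to 270.5 CPM), and of 3 brown adipocyte markers tested 1 was higher and 1 lower (37.7 to 102 CPM, against 33.3 to 80.7 CPM). The sums of 2 lists did not overlap between the groups. Cardiac ventricle markers summed to 5010 to 5961 CPM in ANT1 soleus, against 1967 to 4470 CPM in the mtDNA strains, with 1 of 4 tested higher (Myl3, a myosin light chain that slow fibres also express, 0.74 ± 0.11) and 2 lower. Atrial markers summed to 10.1 to 20.9 CPM in ANT1 soleus, against 50.1 to 631 CPM in the mtDNA strains, with 3 of 3 tested lower, the largest change being that of Sln (sarcolipin, -4.36 ± 0.44). With the fast fibre score as a covariate 35 members were called higher (34.2% of all genes called in either direction), and with the matrix and tendon score 37 were (30.8%). The fast fibre sums overlapped and the list's markers went both ways, so that fit could not decide on the part of fibre type. All 7 matrix and tendon markers were lower in ANT1, and their sums overlapped only at the edges. The fit with that score could therefore not separate the score from the strain. The part of the other marker lists, the slow fibre list among them, was not tested.

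In non-exercised heart the libraries of ANT1 and the mtDNA strains overlapped for every member (0.178% of all genes tested did not overlap). Only Cox19, a copper-handling assembly factor, was called higher in ANT1 (0.47 ± 0.12, adjusted p = 0.0322; 0.916% of all genes were called). It had 32.2, 40.5 and 62.2 CPM in ANT1 hearts, against 21.8, 31.0 and 40.8 CPM in hearts of the mtDNA strains. The members' median was 0.19 and 40 of 42 were above 0, with Cox4i1 at 0.32 ± 0.19 and Cyc1 at 0.26 ± 0.21, neither called. The median over all genes is not given here, so these values are not read as a change of the module. In exercised heart Cox19 (0.52 ± 0.12) and Uqcc3 (0.48 ± 0.14) were higher (4.78% of all genes called). Neither was called on total counts in either arm (9.11% of all genes called in non-exercised and 10.6% in exercised heart), where Cox15 was lower (-0.33 in each). Against the strains alone, ANT1 heart had 0 members called against CO1 (0.413% of all genes), 2 against ND5 (Cox16 at 0.32 and Cox19 at 0.50, 4.68%) and 0 against ND6 (0.242%). With the atrial score as a covariate the count was 4 in each arm, where 6.63% of all genes were called in non-exercised and 9.48% in exercised heart, and it was 6 among non-exercised hearts with Myl7 under 100 CPM (5.32% of all genes). Under that limit only 3 ANT1, 6 CO1, 2 ND5 and 4 ND6 hearts remained. Cox19 was among the members called in each of these fits. In non-exercised heart the count was 0 without A72, A23 (ANT1), E42 (CO1) or B10 (ND5) and 2 without A80 (ANT1), E55, E64 (CO1), B5, B21 (ND5) or I62 (ND6), and the share of all genes called lay between 0.428% and 1.52% with single libraries left out. In exercised heart it was 0 without A73, 4 without A17 (both ANT1), 3 without I4 (ND6) and 1 without A64, A69, A76 (ANT1), E50 (CO1), B11, B13, B71 (ND5), I50, I55, I57, I59 or I63 (ND6), with 1.17% to 7.29% of all genes called. In heart 0 genes of every marker list were called between these groups, and the atrial sum was 70.2 to 21840 CPM in ANT1, against 27.2 to 36460 CPM in the mtDNA strains. In non-exercised heart 0 of 4 mtDNA partners were called (between 0.59 and 0.79) and 0 of 22 other partners (median 0.14). In exercised heart mt-Cytb was higher (0.69 ± 0.21, adjusted p = 0.0478), the other mtDNA partners, between 0.55 and 0.64, were not called, and 0 of 22 other partners were (median 0.21).

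The difference between tissues was tested as an interaction. ANT1's effect in soleus minus that in heart was above 0 and called for 17 of 42 members and below 0 for 0 (11.1% of all genes called), with a median of 0.53. The smallest p belonged to Cox7a2l (0.58 ± 0.10), Cox8a (0.76 ± 0.13), Cox7a2 (0.69 ± 0.14) and Cox18 (0.75 ± 0.16), and the largest difference to Sco2 (1.07 ± 0.31). Cox7a1 (0.91 ± 0.28), Cycs (0.74 ± 0.18), Cox6a1 (0.74 ± 0.23) and Cox4i1 (0.62 ± 0.21) were among those called, and Cox6a2 (0.49 ± 0.23, adjusted p = 0.166) and Cox8b (0.46 ± 0.23, adjusted p = 0.198) were not. The count was 28 without the ND5 heart of B80 (13.9% of all genes called) and 11 without the ANT1 heart of A80 (7.53%). On total counts it was 7 (4 above and 3 below 0, with 33.9% of all genes called), with medians of 0.11 for members and -0.41 for all genes.

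The muscle and ubiquitous isoforms differed between the tissues in a way that does not depend on library scaling, since each ratio is taken within a library. The log2 ratio of Cox8b to Cox8a was 2.51 ± 0.30 in non-exercised soleus, against 1.10 ± 0.74 in non-exercised heart (SD, n = 24 each), a difference of 1.41 (permutation test, 2-sided, p = 1e-05, the smallest that 100000 resamples can give, adjusted p = 0.000255 over 51 isoform tests). That of Cox6a2 to Cox6a1 was 5.09 ± 0.45 in soleus, against 4.02 ± 1.05 in heart, a difference of 1.06 with the same p. These hearts include that of B80, at -0.58, against 3.414 to 4.52 in the other non-exercised ND5 hearts. The log2 ratio of Cox7a1 to Cox7a2 ran the other way, 0.93 ± 0.23 in soleus, against 1.36 ± 0.51 in heart, a difference of -0.42 (permutation p = 0.00058, adjusted p = 0.00986). The tissues overlapped in all 3 ratios. Among mice with both tissues, Cox8b over Cox8a was higher in soleus in 8 of 8 non-exercised and 10 of 10 exercised mice. Cox6a2 over Cox6a1 was higher in soleus in 7 of 8 and 10 of 10. Cox7a1 over Cox7a2 was higher in soleus in 1 of 8 and 2 of 10.

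By deposited FPKM over all 48 libraries of a tissue, the muscle isoform made up a median of 96.5% of the Cox6a pair in soleus, against 93.4% in heart, 93.5% of the Cox8 pair in soleus, against 86.1% in heart, and 84.1% of the Cox7a pair in soleus, against 88.7% in heart. The lowest hearts reached 33.2%, 53.4% and 69.8%, and the first of these is the ND5 heart of B80. All 6 isoform genes had whole counts in all 96 libraries (within 0.005), that is, with no fractional part from reads shared among genes. At the level of genes, Cox8b (1.04 ± 0.10), Cox6a2 (0.49 ± 0.10) and Cox7a2 (0.22 ± 0.06) were higher in soleus than in heart. Cox8a (-0.33 ± 0.06), Cox6a1 (-0.55 ± 0.10) and Cox7a1 (-0.29 ± 0.12) were lower. In all, 22 members were higher and 9 lower in soleus (80.4% of all genes called). The smallest p among higher ones were those of Cox16 (0.86), Cox19 (0.78), Uqcc2 (0.84) and Uqcc3 (0.82), and among lower ones those of Cox20 (-0.99), Cox4i2 (-1.20), the testis isoform Cox6b2 (-1.86) and Sco1 (-0.48). On total counts 17 were higher and 15 lower (78.8% of all genes called), and with mtDNA transcripts left out of the totals 15 were higher and 17 lower (80.6%).

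**Figure D4:**
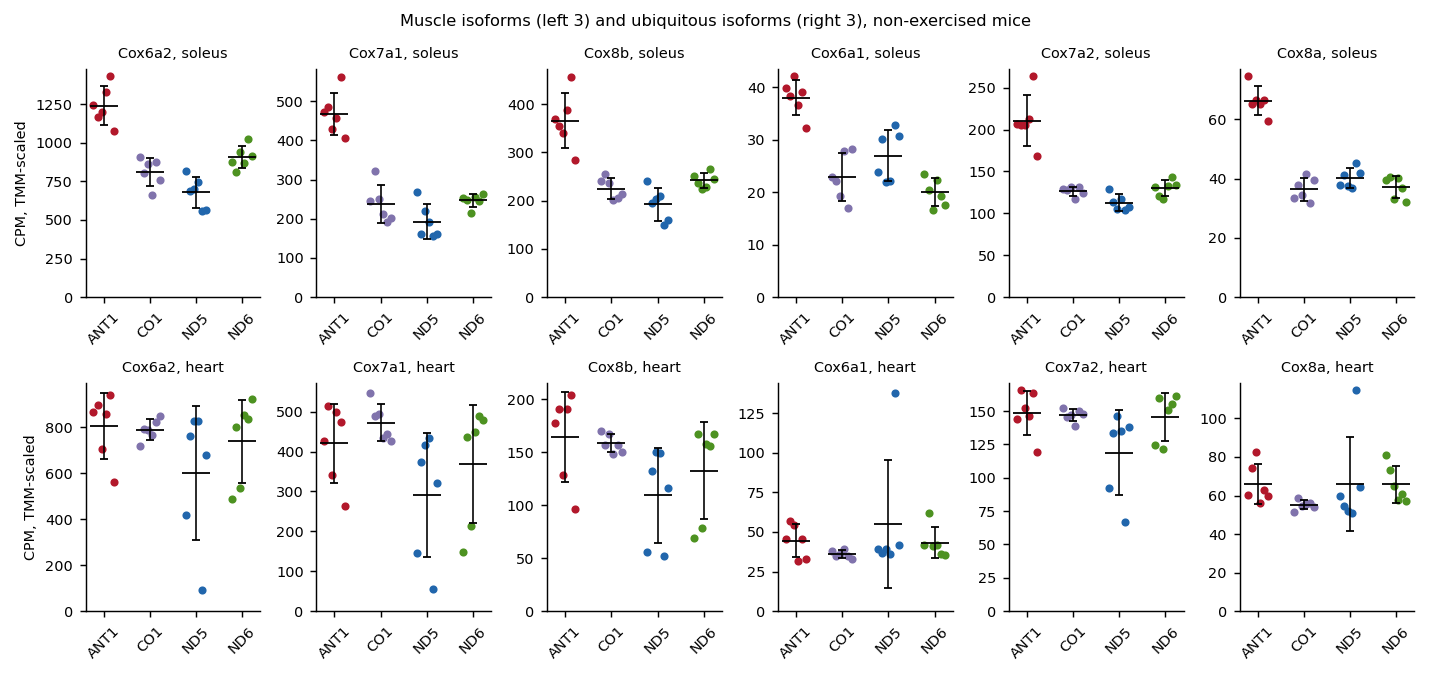
CPM (TMM-scaled) of the muscle isoforms (left 3 columns) and ubiquitous isoforms (right 3 columns) in each non-exercised library of soleus (top) and heart (bottom), with the mean and SD of 6 libraries per strain. ANT1 soleus libraries lie highest for Cox7a1 (406 to 561 CPM), while in heart all strains overlap and 1 ND5 heart (B80) lies apart.

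Between ANT1 and the mtDNA strains, 1 of the 3 ratios differed in non-exercised soleus. Cox7a1 over Cox7a2 was 1.16 ± 0.09 in ANT1 (n = 6), against 0.86 ± 0.22 in the mtDNA strains (n = 18). The difference of 0.30 passed the exact permutation test (2-sided, p = 0.00354, adjusted p = 0.0301), and the groups overlapped. It was 0.19 in exercised soleus (exact permutation p = 0.0121, adjusted p = 0.0773). It fell short of the threshold without any one of 3 ANT1 libraries (A4, A18 and A88, adjusted p between 0.0672 and 0.0773) and with the ratio taken in FPKM (0.29, adjusted p = 0.0512). Cox6a2 over Cox6a1 was 5.02 ± 0.14 in ANT1, against 5.11 ± 0.52 in the mtDNA strains, and Cox8b over Cox8a was 2.448 ± 0.194 in ANT1, against 2.525 ± 0.325 in the mtDNA strains. Neither passed (exact permutation p = 0.7 and 0.596). In heart no ratio differed between ANT1 and the mtDNA strains at the threshold.

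The balance of Cox6a2 and Cox6a1 differed between ND5 and ND6 in non-exercised soleus. In non-exercised soleus Cox6a2 had 558, 693 and 818 CPM in ND5, against 811, 896 and 1024 CPM in ND6 (lowest, median, highest of 6), a log2 fold change of -0.42 ± 0.10 (adjusted p = 0.00582), and the groups overlapped only at their edges. Cox6a1 went the other way, with 21.9, 27.0 and 32.9 CPM in ND5, against 16.6, 19.8 and 23.5 CPM in ND6 (0.44 ± 0.12, adjusted p = 0.0128). The log2 ratio of Cox6a2 to Cox6a1 was 4.66 ± 0.46 in ND5, against 5.51 ± 0.27 in ND6, with no overlap (difference -0.85, exact permutation p = 0.00216, adjusted p = 0.0221). Cox8b over Cox8a was 2.24 ± 0.37 in ND5, against 2.71 ± 0.17 in ND6 (exact permutation p = 0.0108, adjusted p = 0.0773), and fell short of the threshold. Cox7a1 and Cox7a2 were both below 0 in ND5 (-0.36 and -0.20), and Cox7a2 was not called. In all, 1 member was higher (Cox6a1) and 6 were lower in ND5, where 14.5% of all genes were called (9.97% higher, 4.51% lower). The lower ones were Cox6a2, Uqcrc2 (-0.26), Cox7b (-0.32), Cox5a (-0.24), Cox8b (-0.33) and Cox7a1 (-0.36).

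Matrix and tendon markers moved with this contrast: 5 of 7 were higher in ND5 (summed 804 to 4301 CPM, against 284 to 723 CPM in ND6), and 5 of 6 macrophage markers were higher (50.9 to 139.5 CPM, against 13.4 to 50.3 CPM). Neither sum overlapped between ND5 and ND6, so a fit with the matrix and tendon score cannot separate the score from the strain. With that score as a covariate 0 members and 0% of all genes were called, and Cox6a2 stood at -0.21 and Cox6a1 at 0.19. The count was 16 without the ND5 library of B10 (23.4% of all genes called), 1 without that of B70 (3.15%), 2 without that of B85 (6.27%), and 4 without that of B19 (9.3%) or the ND6 libraries of I95 (10.6%) or I100 (12.8%). In exercised soleus and in both arms of heart 0 members were called between ND5 and ND6 (0% of all genes in each). In exercised soleus Cox6a2 stood at 0.045 and Cox6a1 at -0.127. At an unadjusted p under 0.05, 793 genes passed in exercised soleus, 557 in exercised heart and 1025 in non-exercised heart.

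CO1 mice, whose mutation lies in complex IV itself, had 0 members called against ND5 and ND6 in non-exercised soleus (0% of all genes, 491 of them at an unadjusted p under 0.05), with a members' median of 0.015 and a range of -0.12 to 0.12. In non-exercised heart 0 members were called (3.15% of all genes), and 39 of 42 were above 0 with a median of 0.25, against -0.04 over all genes. Cox4i2 came nearest, with 3.37, 4.24 and 5.57 CPM in CO1 hearts, against a median of 2.79 CPM in ND5 and 3.18 CPM in ND6 hearts (0.58 ± 0.21, adjusted p = 0.0781). Cox6a1 (-0.44 ± 0.22) and Cox8a (-0.26 ± 0.13) had the opposite sign, and neither was called. Atrial markers summed to 64.5 to 755 CPM in CO1 hearts, against 27.2 to 15540 CPM in ND5 and 33.4 to 36460 CPM in ND6 hearts, and 4 of 6 white adipocyte and 3 of 6 tested matrix and tendon markers (Col1a1, -1.38, Col1a2, -1.23, and Col3a1, -1.54) were called lower in CO1. Their part in these values was not tested. Without the ND5 heart of B5 the count was 1 (11.3% of all genes called), and it was 1 without that of B21 (6.83%). No member's CO1 effect differed between soleus and heart (0% of all genes called, 2024 at an unadjusted p under 0.05).

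No member passed the test for training. On average over the 4 strains 0 members were called in soleus and 0 in heart (0% of all genes in each). In soleus 536 genes had an unadjusted p under 0.05, among them 1 member, Cox4i1 (0.08 ± 0.04), and in heart 538 genes and 0 members did. With DESeq2 the counts of members were 0 as well. The members' median was 0.06 in soleus (39 of 41 above 0) and -0.03 in heart (15 of 42 above 0). No median over all genes is given beside these values, so they are not read as a change of the module. Within each of the 4 strains 0 members and 0% of all genes were called in either tissue. In ND5 soleus, where 2086 genes had an unadjusted p under 0.05, Cox6a2 had 831, 849 and 889 CPM in exercised mice, against 558, 693 and 818 CPM in non-exercised mice. The groups did not overlap, and the log2 fold change was 0.33 ± 0.10 (adjusted p = 0.132). Its ratio to Cox6a1 was 5.30 ± 0.13 in exercised ND5 soleus, against 4.66 ± 0.46 in non-exercised ND5 soleus (difference 0.64, no overlap, exact permutation p = 0.00216, adjusted p = 0.0221), the only one of 24 training tests of a ratio that passed. The non-exercised ND5 libraries are those of the comparison with ND6. Matrix and tendon markers summed to 361 to 2056 CPM in exercised ND5 soleus, against 804 to 4301 CPM in non-exercised, and their part was not tested. The difference of training effects between strains did not pass for Cox6a2 (F test over strains, edgeR, adjusted p = 0.601). Responders and non-responders to training (3 against 3 per strain in soleus, by the labels) had 0 members called (0% of all genes, 622 at an unadjusted p under 0.05), with a median of 0.06 and Cox10 the only member under the unadjusted 0.05 (0.16 ± 0.07).

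**Figure D5:**
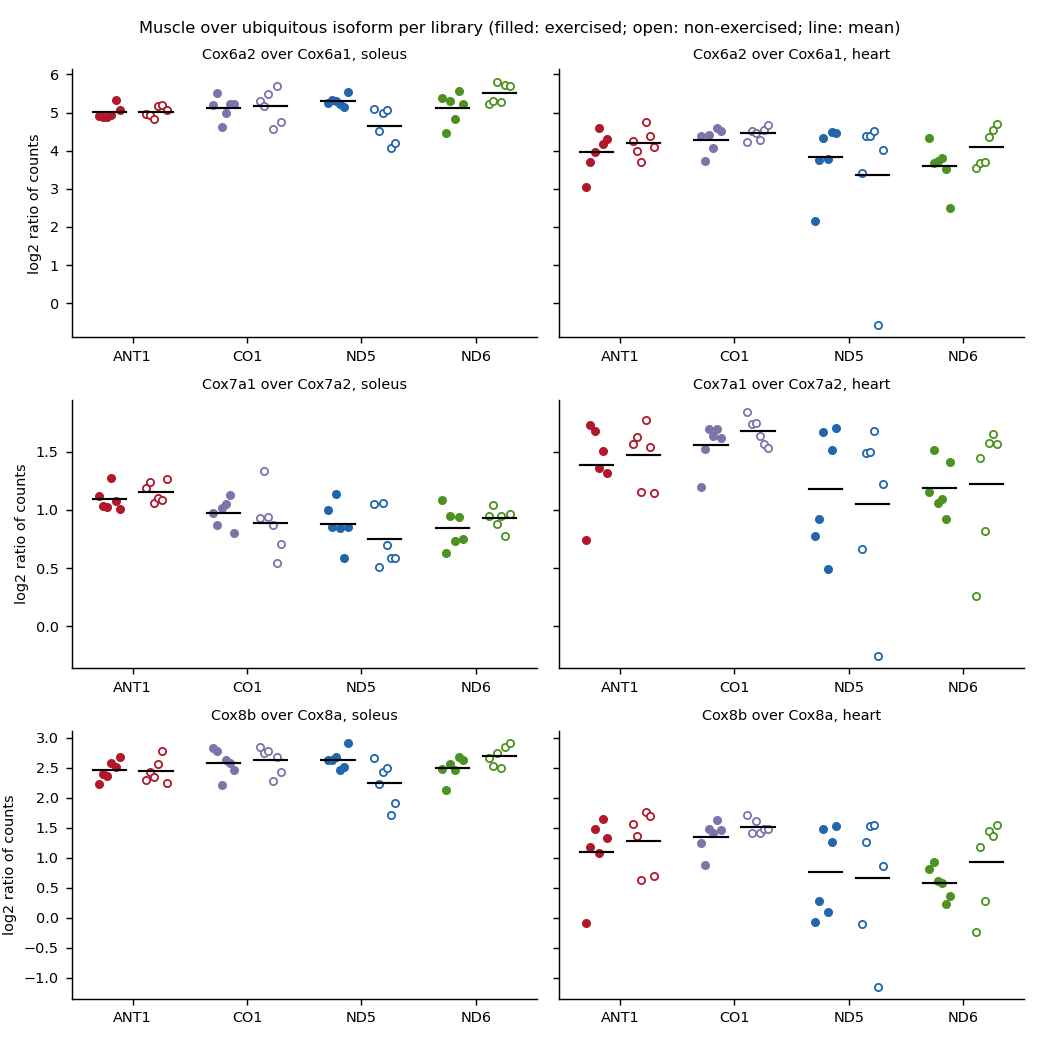
Log2 ratio of muscle over ubiquitous isoform counts in each library by strain (filled: exercised, open: non-exercised, lines: means) in soleus (left) and heart (right), 1 row of panels per pair. Cox8b over Cox8a averages 2.51 in non-exercised soleus, against 1.10 in non-exercised heart, and open ND5 soleus points lie below ND6 for Cox6a2 over Cox6a1 (4.66 against 5.51).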

How the data were processed

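Poly(A) RNA of soleus muscle and heart was sequenced by the authors, after oligo(dT) selection with a NEBNext Ultra II library kit (per the labels' protocols, which name no strand setting). The authors deposited expected counts (RSEM's estimated reads for each gene, some of them fractional) and FPKM values, 1 table of each per tissue. STAR 2.5.2b, RSEM 1.2.28 and build mm10 are named in the submitters' processing notes. Groups came from the labels: 16 groups of 6 libraries. A further 24 columns of expected counts match no sample title and were not used (48 over the 4 tables). The library totals give the depth behind each value, from 10.2 M to 26.5 M counts. Nothing in the labels beyond mouse codes says how replicates were raised, so p-values measure the spread between these mice. No pair of libraries within a group was identical (120 pairs per tissue), and pairs across groups were not compared.

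Expected counts were rounded, filtered with filterByExpr, scaled by TMM and tested with edgeR 4.0.16 (quasi-likelihood, 1 fit per tissue or over both, R 4.3.3), with Benjamini-Hochberg adjustment over all genes tested (13935 in soleus, 15723 in heart, 16172 over both, 13843 among responders) and a threshold of 0.05. Log2 fold changes are given with SE, taken as the absolute log2 fold change over the square root of the quasi-likelihood F. FPKM served only for levels per length and isoform shares. Isoform ratios are log2 of expected counts plus a pseudocount of 1, tested over libraries by exact 2-sided permutation (100000 resamples for 24 against 24), adjusted over 51 tests. Alternatives used DESeq2 1.42.0, limma 3.58.1 (voom), other scalings, filters, covariates and each library left out. The edgeR step was checked on simulated data. The mouse code pairs tissues: 19 codes occur in both, 1 with labels that exclude each other, and deviations of a mouse's tissues correlated by a median of 0.118 (12 of 19 over 0.1). Named throughout were the isoform pairs, Cox4i1, Cox4i2, Cyc1, Cycs, the mtDNA partners and Slc25a4, and in each comparison the 4 called members with the smallest p per direction, the largest change, and any set of 5 or fewer left over. Other named members were chosen after their values were seen. Members and lists were chosen with earlier results of these data known. Proteins were not used here.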

Additional observations from a re-analysis of the deposited data

Results flagged for a closer look

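Among groups of 6 libraries, 22 of 224 sets of values had 1 library far from the other 5, where chance gives about 1 in 20 (Dixon's test). Values are log2 CPM unless named otherwise. Mouse B80, a non-exercised ND5 heart, stood highest for Cox6a1 (7.106) and Cox8a (6.842) and lowest for Cox6a2 (6.527), and its log2 ratio of Cox6a2 to Cox6a1 was -0.58. In exercised ND5 heart, mouse B11 stood highest for Cox6a1 (6.543) and Cox8a (6.618), with a Cox6a2 to Cox6a1 ratio of 2.156. In ND6 heart, mouse I63 (exercised, 6.409) and mouse I56 (non-exercised, 5.961) stood highest for Cox6a1. In exercised CO1 heart, mouse E50 stood lowest for Cox6a2 (9.16) and Cox4i1 (9.367), and mouse E44 lowest for the log2 ratio of Cox7a1 to Cox7a2 (1.199). In non-exercised CO1 heart, mouse E75 stood lowest for Cyc1 (8.892). In exercised ANT1 heart, mouse A17 stood lowest for the log2 ratio of Cox8b to Cox8a (-0.093).

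In soleus, non-exercised ND6 mouse I18 stood lowest for Cox7a1 (7.755), and exercised CO1 mouse E12 lowest for Cox8a (5.056). Non-exercised ND5 mouse B10 stood highest for Cox4i1 (9.167). Exercised ND5 mouse B9 stood highest for Cox8b (8.025) and for the members' share of counts (1.031%). Cox4i2 was lowest in exercised ND5 mouse B80 (-0.447) and exercised ND6 mouse I94 (-0.502). Exercised ND6 mouse I59 stood lowest for the log2 ratio of Cox8b to Cox8a (2.126).

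For 17 members the difference between ANT1 and the mtDNA strains differed between soleus and heart by the interaction test. That count ran from 11 to 28 with single libraries left out and was lower on total counts. The share of all genes called is given with the interaction test above. Among the called members that were always named, soleus minus heart was 0.741 for Cox6a1, 0.912 for Cox7a1, 0.687 for Cox7a2, 0.755 for Cox8a, 0.622 for Cox4i1 and 0.736 for Cycs. It was 0.583 for Cox7a2l and 0.751 for Cox18.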

How the results depend on the processing

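Counts of members called kept within 1.5 times of the reported count in most alternatives, with the exceptions below. The share of all genes called is not given beside each of these counts, so a changed count is not read as particular to the members. On total counts with no scaling factors the count was 21 in non-exercised and 17 in exercised ANT1 soleus, 7 for the interaction and 1 in exercised ANT1 heart. With mtDNA transcripts also left out of the totals it was 0 in both ANT1 heart arms and 4 for ND5 against ND6 soleus. With only the groups compared in the fit it was 0 in non-exercised and 1 in exercised ANT1 heart and 3 for ND5 against ND6 soleus. Without the filter on low counts it was 0 in non-exercised and 1 in exercised ANT1 heart. With an atrial covariate it was 4 in each heart arm, and with the brown adipocyte score 0 at rest. Among non-exercised hearts with Myl7 under 100 CPM, which kept 3 of 6 ANT1 hearts, it was 6. For ND5 against ND6 soleus it was 4 with the fast fibre score and 0 with the matrix and tendon score, whose sums did not overlap between these strains. The difference in the log2 ratio of Cox7a1 to Cox7a2 between ANT1 and the mtDNA strains in non-exercised soleus was 0.29 when taken in FPKM and lost its call. With each library left out in turn, the count ran from 0 to 2 in non-exercised and 0 to 4 in exercised ANT1 heart, 11 to 28 for the interaction, 0 to 1 for CO1 heart and 1 to 16 for ND5 against ND6 soleus, and the Cox7a1 to Cox7a2 difference from 0.28 to 0.33. The Cox6a2 to Cox6a1 difference in ANT1 heart ran from -0.041 to 0.324, below 0 without B80. On total counts 13 of the 37 members called in non-exercised ANT1 soleus had a sign below 0. Among the members followed by name in each comparison, signs turned there for Cox15 (0.009 with median-ratio factors, the matrix and tendon score or DESeq2, 0.016 without mtDNA transcripts, 0.121 with the fast fibre score, -0.053 to 0.085 with single libraries left out), Cox4i2 (-0.27 on total counts, -0.061 with the fast fibre score), Cox6a2 (-0.009 on total counts), Sco1 (-0.45 on total counts, -0.027 without mtDNA transcripts in the totals) and Uqcc3 (-0.55 and -0.12 likewise). In exercised ANT1 soleus they turned for Cox15 (-0.403 and -0.041 likewise), Cox20 (-0.389 and -0.022), Cox4i2 (-0.46 and -0.09, -0.41 with the fast fibre score, -0.011 to 0.208 with single libraries left out, the lowest without A81) and Uqcc3 (-0.38 on total counts). In heart they turned for Cox6a1 between ND5 and ND6 (-0.20 with Myl7 under 100 CPM, -0.151 to 0.491 with single libraries left out, the lowest without B80) and for Uqcrc1 under training (0.022 with the atrial score). With the mouse as a block (limma voom) the count was 30 for soleus against heart and 13 for the interaction, and voom without the block gave the same counts. The Myl7 alternative was not run for exercised heart and training, since no exercised ND6 heart was under that limit. The cause of these shifts was not tested.

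Strain and tissue effects rest on 6 mice a group, and the control strain was not analysed here. Atrial marker levels differed widely among hearts. Cox6b2, Cox7b2 and Cox8c were too low to test in soleus. Counting error of single libraries does not cover differences between mice.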
